A study of Bos taurus with 8 samples.

Results

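The ileum, the last segment of the small intestine, was represented by 1 of the 8 cattle RNA-Seq libraries of the study, and was compared with the 7 other libraries at 24886 loci that carry an Ensembl transcript identifier. The other libraries came from nucleated blood cells, abomasum, rumen, parenchyma of the mammary gland, intercaruncular uterus, frontal cortex and whole testes. The labels give the tissue of each library and no breed, age, sex, treatment or animal. The study's methylation samples came from a Hereford cow and relatives: ileum, abomasum, frontal cortex and mammary gland from juvenile females, uterus and nucleated blood cells from adult females, testes from an adult male and rumen from a male fetus. The study describes the RNA-Seq data as coming from the same tissues, while its methods speak of a collection similar to that of an earlier atlas. Whether the RNA was taken from the same animals, or any pair of tissues from 1 animal, is not given in the sources used here. Each tissue had 1 library, so no difference below has a replicate check, no p-value is given, and a difference between tissues and one between animals, ages or sexes cannot be told apart. The purpose of the RNA-Seq data in the study was to set transcript levels beside DNA methylation in the same kinds of tissue.

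The ileum takes up bile acids and vitamin B12 through absorptive cells of its epithelium, which also holds mucus-secreting and hormone-secreting cells. In ruminants its wall carries an extended Peyer's patch, a lymphoid tissue rich in dividing B cells, and smooth muscle surrounds the mucosa. The abomasum is the glandular stomach, which secretes acid and digestive enzymes, and nucleated blood cells are the white cells of the blood. A piece of ileum therefore holds epithelial, immune and muscle cells together. In such bulk samples, fewer cells of a type and less RNA per cell cannot be told apart.

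The values are FPKM, the fragments mapped to a locus, divided by transcript length and by the number of mapped fragments, and differences are on the scale of log2(FPKM + 1), which understates the difference of low loci. A locus was called high in ileum alone where it reached 1 FPKM in ileum and stood 5-fold or more above each other library on FPKM + 1. At these settings the fold alone already requires more than 1 FPKM, so the minimum decided no call. A locus shared with another library had to pass the same fold from both libraries to each of the rest, and not to be high in ileum alone already. Positions are those of the cattle assembly UMD3.1, counted from 1. The interval given for a locus can cover several overlapping loci, as it did for 7236 of the 24886 (29.1%), and 2093 loci (8.41%) carry several identifiers, so that levels of overlapping or near-identical transcripts are uncertain. The table does not pair identifiers with gene symbols, so most loci are given by position and the label of the ileum was not checked against marker genes.

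The scaled depth, recovered from the values of short loci, was 7476000 reads in ileum, the second lowest of the 8 libraries, against 6022000 in mammary gland and 15484000 in rumen at the ends of the range. At this depth 1 FPKM on a transcript of 1000 bases stands for 5.47 reads in ileum, and a floor of 3 reads, the limit that a count of 0 allows, for 0.549 FPKM (0.265 to 0.681 across libraries). Reads carry no molecular identifiers, so floors cover counting error only. In ileum 13163 of the loci had at least 1 FPKM. An exact 0 can be a failed estimate: 2 named mitochondrial loci, whose RNA most cells hold in plenty, were at 0 in rumen and frontal cortex, against 147242 FPKM in ileum. Any 0 below therefore means only that the locus is listed at 0.

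At 230 loci (0.924% of those compared) ileum stood at least 5-fold above each of the 5 libraries other than abomasum and nucleated blood cells. Of these, 102 (0.410%) were high in ileum alone. A further 42 (0.169%) were high in ileum and abomasum, 31 (0.125%) in ileum and nucleated blood cells, and 7 (0.0281%) in all 3. The remaining 48 fell in between: ileum was less than 5-fold above abomasum (16 loci), nucleated blood cells (9) or both (23), or was below them, and the locus met the rule of no shared set. At 1 locus (0.00402%) ileum was at least 5-fold below every other library. Without the abomasum library, 160 loci were high in ileum alone and 51 in ileum and nucleated blood cells, and without the mammary gland library 105 were high in ileum and nucleated blood cells and 21 in all 3. With a pseudocount of 0.1 FPKM in place of 1, the counts shared with nucleated blood cells and by all 3 libraries were 66 and 16. The order of the shared sets depended on the fold. At a fold of 2, 112 loci were shared with abomasum, 319 with nucleated blood cells and 47 by all 3. At a fold of 10 these counts were 21, 11 and 1.

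**Figure D1:**
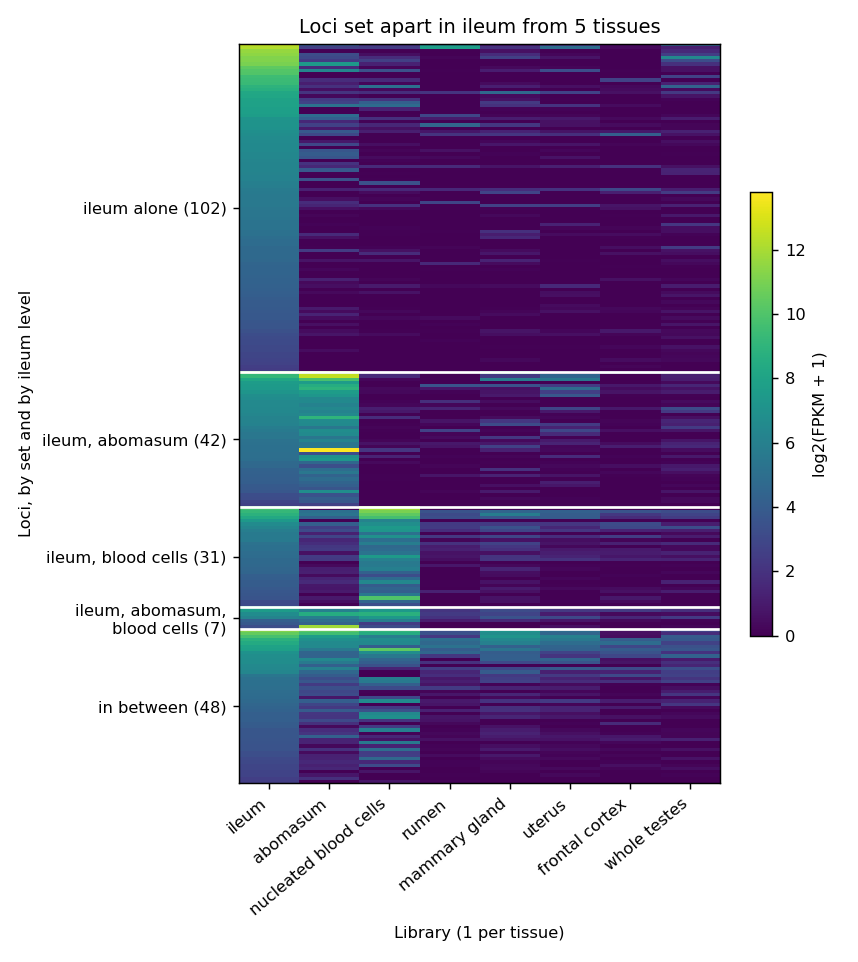
Level of each of the 230 loci at least 5-fold higher in ileum than in 5 tissues (1 row per locus, sorted by ileum level within each set), in log2(FPKM + 1) by color, in the 8 libraries. The 102 loci at the top are high in the ileum column only, and the 42 and 31 loci under them are also high in the abomasum or the nucleated blood cell column.

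The loci high in ileum alone spanned a wide range of levels, from 4.55 to 6356 FPKM in ileum, with a median of 44.6 and quartiles of 18.2 and 133. At least 100 FPKM was reached by 30 of the 102 and at least 1000 by 10. The median difference from the next library was 3.60 on the log2 scale, and 20 loci were listed at 0 in all 7 other libraries. Of these 20, 11 lie in shared intervals and 4 are short loci on few reads, which leaves 5 with neither limit. The authors' program marked the comparison of ileum with each other library as tested at 102 of the 102, which include the loci of few reads described below. Of these loci, 30 lay in shared intervals, and 11 carried several identifiers.

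The 12 with the highest difference include 3 neighbors on chromosome 2. The first, ENSBTAT00000062001 at chr19:23213543-23249455, had 1078 FPKM in ileum and was listed at 0 in all 7 others, in an interval that other loci share. The second, ENSBTAT00000009389 at chr11:56528811-56531769, had 3171 FPKM in ileum, 1.97 in whole testes and 0.512 in mammary gland, and was listed at 0 in the other 5, a difference of 10.06 on the log2 scale from testes. Both of these loci were thus abundant in ileum, and were listed at 0 or at most 1.97 FPKM elsewhere.

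On chromosome 2, the locus at chr2:133267318-133272112 had 1311 FPKM in ileum and at most 2.11, in abomasum (log2 difference 8.72). Its neighbor at chr2:133289295-133295334 reached 2846 FPKM in ileum against 8.22 in abomasum, 4.89 in whole testes and 2.37 in mammary gland (8.27). The third, at chr2:133319863-133323729, had 287 FPKM in ileum and at most 0.642, in whole testes (7.45). At all 3 the table lists rumen and frontal cortex at 0, and the separation from the other libraries was wide at each of them.

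Among the rest of the 12, 4 stayed at 1.46 FPKM or lower in each other library. The locus at chr3:104603593-104605588 had 414 FPKM in ileum and at most 0.487, in abomasum. That at chr5:109933909-109940236 had 651 FPKM in ileum, 1.46 in whole testes and 1.27 in abomasum. The locus at chr10:25780374-25826027, in a shared interval, had 218 FPKM in ileum and was listed at 0 elsewhere, as was a locus of 102 FPKM at chr21:68789446-68803869, also in a shared interval. The last 3 had their next level between 5.51 and 8.49 FPKM. At chr8:76329357-76348121 ileum had 2306 FPKM, whole testes 8.49, nucleated blood cells 5.02 and abomasum 4.28, with 0 in the other 4. The locus at chr7:73914461-73920515 had 746 FPKM in ileum and was listed at 0 in each other library but whole testes (5.67). At chr3:23554692-23624146, another shared interval, ileum had 684 FPKM, frontal cortex 5.51, abomasum 2.43 and nucleated blood cells 2.13. The next library after ileum was thus not the same at each of these loci.

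**Figure D2:**
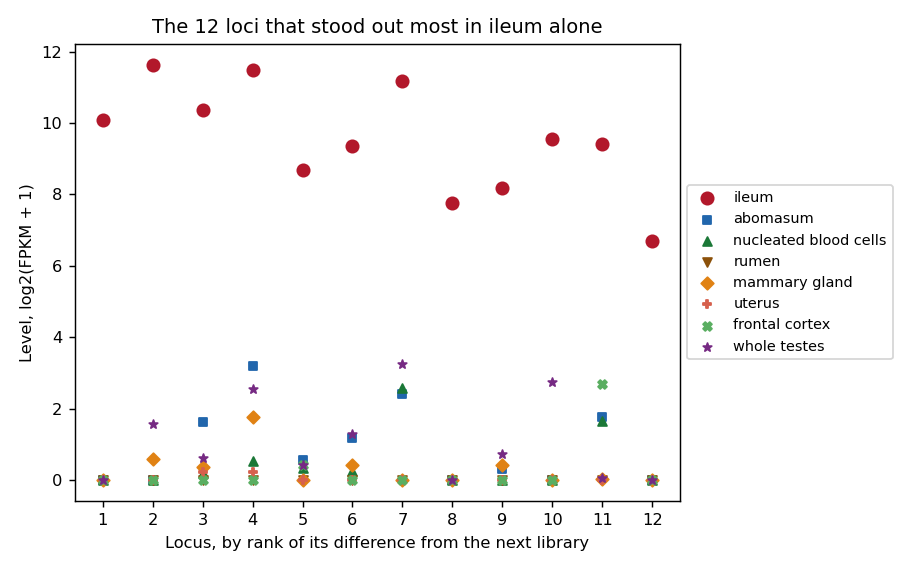
Level in log2(FPKM + 1) of the 12 loci with the highest ileum difference (horizontal axis, in order of that difference) in each of the 8 libraries (1 point per library, points at 0 lie on each other). The ileum points lie between 102 and 3171 FPKM, and every other point is at or below 8.49 FPKM.

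Across the 82 loci of this set that were above 0 elsewhere, the next library was abomasum at 31 and whole testes at 21, against 9 for frontal cortex, 7 for nucleated blood cells, 6 each for mammary gland and rumen and 2 for uterus. A level of at least 1 FPKM outside ileum was found at 36 of the 102 loci in abomasum, 22 in nucleated blood cells and 21 in whole testes, and at 5 in frontal cortex. The highest level outside ileum was 216 FPKM in rumen, at a locus with 4791 FPKM in ileum, followed by 175 in abomasum, at a locus with 2076 in ileum (chr7:61042755-61049774). High in ileum alone therefore did not mean absent elsewhere.

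The 5-fold threshold cut through loci with nearly the same difference. Just inside it, the locus at chr2:4819749-4905272 had 25.6 FPKM in ileum and 4.33 in whole testes. Just outside, the locus at chr26:47635451-47651856 had 22.8 FPKM in ileum and 3.77 in whole testes. At a fold of 10 the set held 59 loci and at a fold of 2 it held 245. Very short loci carry high FPKM on few reads: 5 of the 102 span at most 200 bases, and these rested on at most 0.9 to 3.8 reads each, 4 of them under the floor of 3 reads. These 4 are among the 20 listed at 0 in all other libraries. One of them, at chr17:64874908-64875048, had 69.6 FPKM.

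At the 42 loci shared with abomasum the median was 39.6 FPKM in ileum (range 5.15 to 1895) and 78.3 in abomasum, and ileum was the higher of the pair at 12. This count leans to abomasum by construction, because 8 further loci at which both libraries stood clear of the rest were counted as high in ileum alone, while 4 of the 42 were high in abomasum alone. At the 38 loci within 5-fold of each other ileum was also the higher at 12. The median in nucleated blood cells was 0.0513 FPKM.

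The locus with the highest difference of this set, at chr19:41719376-41789031, had 198 FPKM in ileum and 196 in abomasum, 0.278 in whole testes and 0 in the other 5, and its interval is shared. On the X chromosome, the locus at chrX:60134287-60136956 had 79.3 FPKM in ileum and 84.8 in abomasum, with at most 0.0847 elsewhere. The locus at chr3:57702288-57736671 had 88.1 FPKM in ileum and 69.7 in abomasum, with at most 0.189 elsewhere. At these 3 the levels of both digestive tissues lay close to each other. At 2 others they lay far apart. The locus at chr25:14577546-14643306, in a shared interval, had 30.3 FPKM in ileum and 152 in abomasum with 0 elsewhere. That at chr4:25256264-25271426 had 594 in ileum, 6010 in abomasum and 21.2 in uterus. The sixth, at chr2:125390299-125390431, had 103 and 86.8 FPKM but is a short locus that stands for 2.1 reads in ileum.

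At the 31 loci shared with nucleated blood cells the median was 28.4 FPKM in ileum (range 7.28 to 845) and 49.6 in nucleated blood cells, against 1.42 in abomasum, and ileum was the higher of the pair at 7. Here 1 further locus went to ileum alone and 3 of the 31 were high in nucleated blood cells alone, and at the 28 within 5-fold of each other ileum was also the higher at 7.

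The highest difference belonged to a locus at chr5:44421169-44720998 with 845 FPKM in ileum and 3831 in nucleated blood cells, listed at 0 in the other 6, in an interval that 8 named loci share. Also at 0 in the other 6 were chr6:8023551-8024665, with 175 FPKM in ileum and 70.6 in nucleated blood cells, and chr10:26814899-26827908, with 25.4 and 47.5, both in shared intervals. The next 3 were above 0 in other tissues. At chr6:99655644-99690417 ileum had 324 FPKM and nucleated blood cells 825, with 2.26 to 17.9 elsewhere. At chr11:49060223-49140113, a locus with several identifiers, the levels were 576 and 2066 FPKM, with 8.16 to 33.1 elsewhere. At chr7:12206055-12271139 ileum was the higher, with 51.5 FPKM against 34.4 in nucleated blood cells and 1.42 in abomasum.

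The 7 loci shared by all 3 libraries had medians of 71.4 FPKM in ileum, 59.1 in abomasum and 95.9 in nucleated blood cells. Their order differed from locus to locus. At chr27:34686545-34699491 ileum was the lowest of the 3, with 104 FPKM against 372 in abomasum and 436 in nucleated blood cells. At chr3:29643176-29648016 it was the highest, with 216 FPKM against 23.5 and 95.9. At chr23:28813849-28847674, a locus with several identifiers, ileum had 187 FPKM, abomasum 63.8 and nucleated blood cells 176. The locus at chr29:40456336-40466766 was far higher in abomasum, at 3626 FPKM, than in ileum (8.93) or nucleated blood cells (7.93). The other members were chr21:20013562-20193047 with 17.4 FPKM in ileum, chr3:54306244-54323060 with 71.4, and a locus of 191 bases at chr19:43829756-43829946, whose 13.2 FPKM in ileum stand for at most 1.7 reads.

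Counted the same way, sharing with the other 5 libraries was rarer. Ileum and rumen shared 19 loci, ileum and uterus 6, ileum and whole testes 3, ileum and mammary gland 3, and ileum and frontal cortex 2. Among the 20 other pairs of partner libraries the highest count of loci shared by all 3 was 8, for abomasum and rumen, next to the 7 for abomasum and nucleated blood cells.

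The sharing was also seen where ileum played no part in choosing the loci. Leaving ileum out, 480 loci were at least 5-fold higher in nucleated blood cells than in each of the other 6 libraries. In the left-out ileum library, 248 of these (51.7%) lay less than 5-fold below nucleated blood cells or above them, and 421 (87.7%) had at least 1 FPKM, with a median of 11.8 FPKM. When any other library was left out in the same way, the share less than 5-fold below was 2.93% to 7.57%, and the share with at least 1 FPKM was 38.9% to 66.4%. Those lists were chosen with ileum among the compared libraries, which had already removed loci shared with it. With ileum and 1 other library left out together, both were read on the same 496 to 549 loci. Ileum then gave 51.8% to 55.6% and the other library 3.23% (uterus) to 12.6% (mammary gland). On each of these lists, loci high in nucleated blood cells were thus more often at a like level in ileum than in the other library left out.

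For abomasum, 166 loci were chosen without ileum, and 70 of them (42.2%) lay less than 5-fold below in ileum. The other libraries left out gave 9.43% to 20.7%, with rumen the highest, and with ileum and 1 other library left out together ileum gave 41.3% to 47.8% and the other 9.78% to 21.7%. In ileum 109 of the 166 (65.7%) had at least 1 FPKM, with a median of 6.10 FPKM. Over all named loci, 13163 of 24886 reached 1 FPKM in ileum. The other libraries left out gave 22.6% (frontal cortex) to 42.5% (uterus), on lists chosen with ileum among the compared libraries. The separation narrowed for both at a fold of 2, where for abomasum ileum gave 27.4% and the highest other library 24.7%, and for nucleated blood cells ileum gave 17.5% against 3.22% to 11.2%.

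For loci high in the other 5 tissues, the left-out ileum did not stand apart in this way: it shared 15.6% of those of mammary gland, 13.2% of rumen, 13% of uterus, 2.76% of frontal cortex and 1.38% of whole testes. Turned round, of the loci high in ileum chosen without the named library, abomasum shared 36.2%, nucleated blood cells 28.7%, rumen 19.0% and the other 4 between 5.56% and 12.1%.

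**Figure D3:**
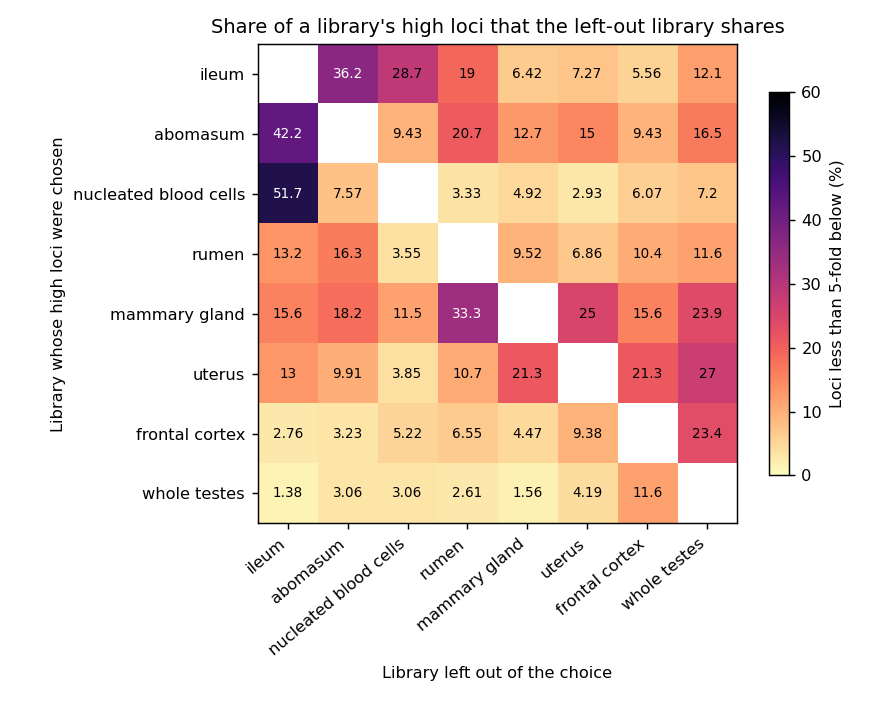
Percentage of the loci high in 1 library (vertical axis), chosen without the library on the horizontal axis, that lay less than 5-fold below in that left-out library, over all pairs of the 8 libraries. The darkest cells are those of ileum left out of nucleated blood cells (51.7%) and of abomasum (42.2%).

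Set against each library in turn, ileum was more often the higher than the lower by at least 5-fold in 5 of the 7 comparisons. It was higher than nucleated blood cells at 1448 loci (5.82%) and lower at 416 (1.67%). Against rumen it was higher at 978 (3.93%) and lower at 581 (2.33%), and against uterus at 880 (3.54%) and 484 (1.94%). The fewest loci stood apart from mammary gland, 585 higher (2.35%) and 344 lower (1.38%), and from abomasum, 562 higher (2.26%) and 383 lower (1.54%). The order turned for frontal cortex, with 1337 higher (5.37%) and 1438 lower (5.78%), and for whole testes, with 1248 higher (5.01%) and 2738 lower (11.0%). Each of these 7 comparisons uses the same ileum library.

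**Figure D4:**
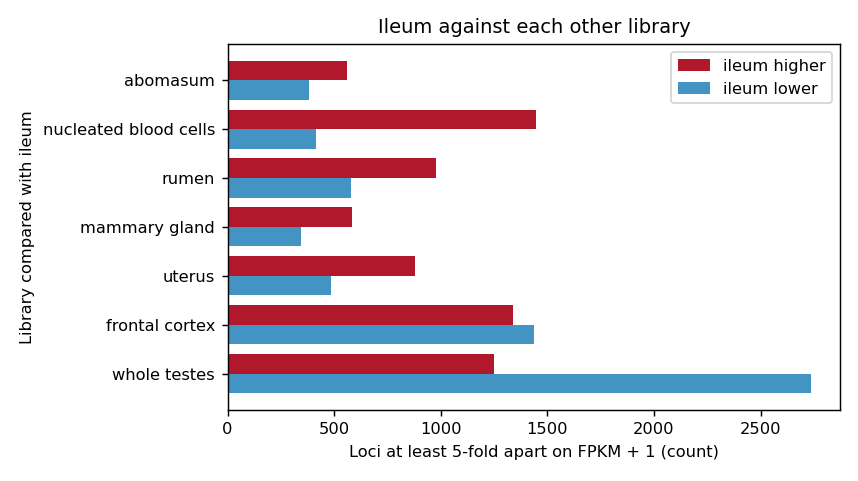
Number of named loci at which ileum was at least 5-fold higher (upper bar of each pair) or lower (lower bar) than each other library on FPKM + 1. The lower bar exceeds the upper one for frontal cortex and whole testes, and both bars are shortest together for abomasum and mammary gland.

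Across the 17484 loci with at least 1 FPKM in some library, the Pearson correlation of ileum in log2(FPKM + 1) was 0.850 with abomasum, 0.845 with mammary gland, 0.811 with uterus, 0.787 with rumen, 0.786 with nucleated blood cells, 0.652 with frontal cortex and 0.486 with whole testes. Spearman's rho ran from 0.855 for abomasum to 0.461 for whole testes. The points are loci, which are not independent replicates, and all pairs share the ileum library. Over these loci abomasum and mammary gland were nearly level in their likeness to ileum, although ileum and mammary gland shared only 3 high loci. With loci without an identifier included, the order turned, to 0.6091 for abomasum and 0.8525 for mammary gland.

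The ileum seldom held an extreme level. It was the highest of the 8 libraries at 804 of the 17484 loci (4.60%), the fewest of any library, against 834 (4.77%) in mammary gland and 5392 (30.8%) in whole testes. With libraries rescaled to 1 sum of FPKM, ileum was highest at 816 loci and was the second fewest, another library having 647. Of the 12388 loci above 0 in every library, ileum was the lowest at 476 (3.84%), again the fewest, against 794 (6.41%) in mammary gland and 2688 (21.7%) in frontal cortex. Its level ranked 3 to 6 among the 8 at 70.2% of those loci, against 67.0% in mammary gland, 59.8% in uterus and 32.0% in whole testes.

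The count of loci high in 1 library alone placed ileum in the lower middle of the series. Ileum had 102, near uterus (100) and abomasum (96) and above mammary gland (54), against 190 in rumen, 232 in nucleated blood cells, 599 in frontal cortex and 1645 in whole testes. At 123 loci ileum was the only library with at least 1 FPKM, near nucleated blood cells (124), uterus (128) and abomasum (114). The same count was 85 for mammary gland, 96 for rumen, 361 for frontal cortex and 1452 for whole testes. At 20 loci ileum was the only library below 1 FPKM, against 909 such loci for nucleated blood cells and 28 for mammary gland.

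The locus low in ileum alone was ENSBTAT00000059922 at chr11:104181964-104185616, listed at 0 in ileum and at 79.6 FPKM in frontal cortex to 475 in mammary gland. Its interval is shared by other loci, and how reads were divided between them was not tested. None of the next 5 loci in order passed the threshold. The nearest, at chr3:17163356-17165408, had 1.19 FPKM in ileum, 4.88 in uterus as the lowest other library and 31149 in rumen, a difference of -1.42 on the log2 scale from uterus. At chr10:102523111-102766262 ileum had 1.93 FPKM against 5.25 in nucleated blood cells and 55.7 in whole testes. In the other 3 of the 6, ileum had 0.493 to 4.43 FPKM.

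In terms of abundance, the 102 loci high in ileum alone made up 5.38% of the summed FPKM of named loci outside the mitochondrial genome in ileum, a share given as a description, since their high level there chose them. The 10 most abundant loci together held 11.0% in ileum, and 2 of these 10 were high in ileum alone. The fifth, at chr13:74208266-74274993, carries several identifiers. It had 6356 FPKM in ileum, 109 in rumen, 21.3 in whole testes, 13.1 in abomasum and at most 3.83 in the other 4. The tenth, in the shared interval chr5:44421169-44720998, also carries several identifiers. It had 4791 FPKM in ileum, 216 in rumen, 28.4 in uterus and at most 5.04 in the others.

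The other 8 were abundant in several tissues. The most abundant, at chr19:49329691-49337996, had 13006 FPKM in ileum, below nucleated blood cells (22262) and abomasum (16344). The second, at chr17:72826635-73152866, was highest in ileum, with 10922 FPKM against 6806 in abomasum, 5685 in mammary gland and 29.4 in frontal cortex. The third, at chr23:28468651-28506317, had 9155 FPKM in ileum and 12343 in nucleated blood cells, and the fourth, at chr7:63709241-63803414, was highest in ileum with 7338. Ileum ranked 2 to 4 among the libraries at the remaining 4, with 5013 to 5597 FPKM.

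Part of the loci high in ileum lay next to each other. Of the 102 high in ileum alone, 14 (13.7%) had another member within 100 kb. Uterus and abomasum, whose sets of the same kind are of about the same length, had 4 of 100 (4.0%) and 21 of 96 (21.9%). The other libraries, with shorter or longer sets, had 20.5% (frontal cortex) to 36.5% (whole testes). Only uterus thus had a lower share than ileum. Members listed with the same interval count as neighbors here, and whether the shares exceed that of named loci at large was not tested. Of all 230 loci set apart from 5 tissues, 63 (27.4%) had such a neighbor, and 10 stretches held at least 3 of them. Chromosome 2 carried 9 of the 102 (8.82%, against 4.15% of named loci), chromosomes 5 and 7 carried 8 each (7.84%, against 5.36% and 5.63% of named loci), and the X chromosome carried 1 (0.980%, against 4.54%). Of the 9 on chromosome 2, 4 lay in 1 stretch. Chromosomes with fewer members also exceeded their share, such as 20 with 4 (3.92%, against 1.57%) and 21 with 6 (5.88%, against 2.93%).

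The stretch on chromosome 2, chr2:133149365-133323729, held 6 named loci, of which 4 were high in ileum alone. Beside the 3 described above, the first locus had 19.6 FPKM in ileum and 1.33 in abomasum, and the second, in between, had 28.6 in ileum, 8.05 in abomasum and 3.43 in whole testes. The only one not set apart had 1.04 FPKM in ileum and was highest in frontal cortex, at 2.61. Along this stretch, loci above 1000 FPKM in ileum thus lay next to 1 near 1 FPKM.

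On chromosome 23, chr23:25607552-25656498 held 4 named loci, and the 3 high in ileum alone had 71.1, 68.3 and 81.9 FPKM there. Abomasum had 0.0672 FPKM at the first of them, 9.69 at the second and 15.0 at the third, while frontal cortex, uterus and rumen were listed at 0 at all 3. The levels in ileum lay close together at these loci, which were chosen for them, and those in abomasum did not. The first shares its interval with the locus not set apart, which had 2.35 FPKM in ileum and 5.36 in whole testes. How reads were divided between these overlapping loci was not tested.

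The interval chr5:44421169-44720998 held 8 named loci, and each of the 3 main sets had a member in it. The first had 4791 FPKM in ileum, as above, the second 845 in ileum and 3831 in nucleated blood cells, and the third 32.7 in ileum and 14336 in abomasum. Of the other 5, 1 was highest in nucleated blood cells (1880 FPKM, with 66.3 in ileum), 2 in abomasum (2921 and 1008, with 2.71 and 2.17 in ileum), and 2 were listed at 0 in all 8 libraries. Ileum, abomasum and nucleated blood cells thus each had their highest level at a different locus of the interval. How the authors' program divided reads among these overlapping loci was not tested.

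On chromosome 21, chr21:35112322-35267979 held 10 named loci, 6 of them set apart from 5 tissues. The 2 high in ileum alone had 91.6 and 236 FPKM in ileum, with 12.2 and 36.3 in abomasum, and the second had 27.0 in nucleated blood cells. The 2 shared with nucleated blood cells had 22.6 and 16.7 FPKM in ileum against 60.3 and 26.9. Frontal cortex had at most 0.344 FPKM at the 10 loci, and whole testes was listed at 0 at all of them.

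**Figure D5:**
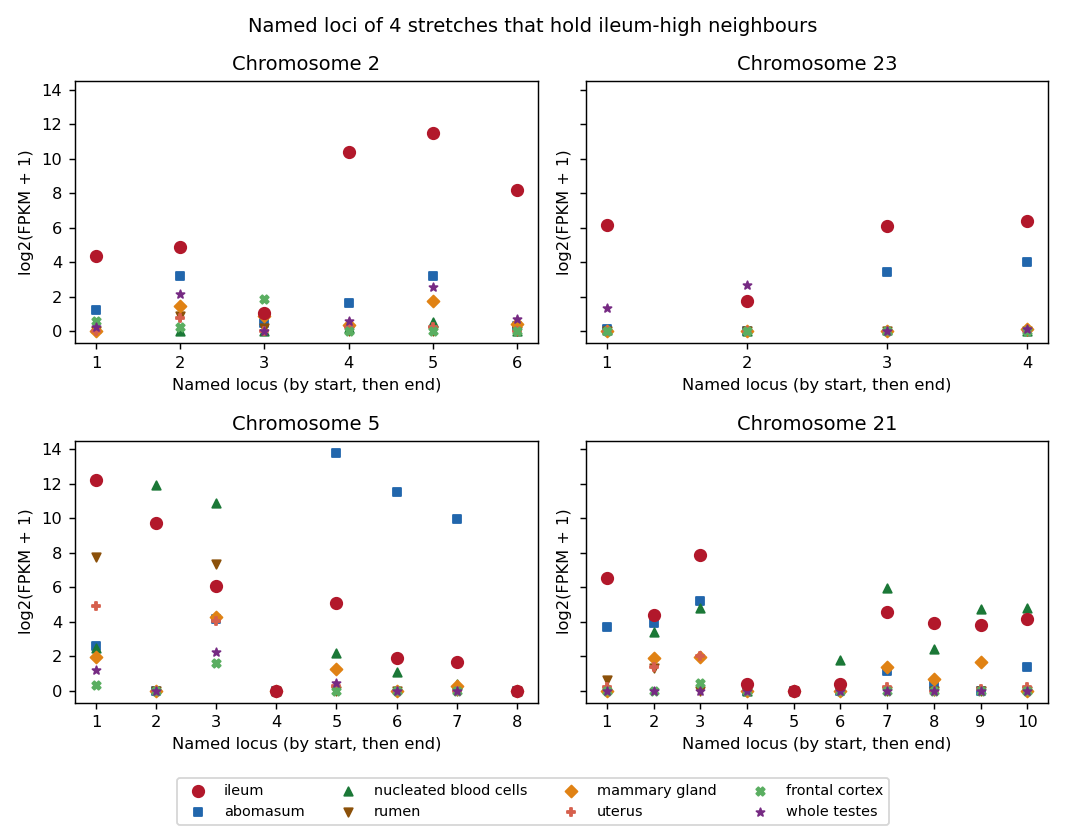
Level in log2(FPKM + 1) of the named loci (horizontal axis, by start and then end) in 4 stretches that hold neighbors set apart in ileum, with 1 point per library. On chromosome 2 the ileum points stand above all others at 5 of 6 loci, and on chromosome 5 the highest point is that of ileum, nucleated blood cells or abomasum at 6 of 8 loci, with every library at 0 at the other 2.

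Of the other 6 stretches, 4 held a locus high in ileum alone. At chr7:17737516-17789026, 2 loci shared with nucleated blood cells had 30.2 and 24.4 FPKM in ileum against 36.7 and 49.6, and the last, high in ileum alone, had 81.5 FPKM against 11.2 in abomasum. At chr15:52184590-52221722, 2 loci high in ileum alone had 139 and 118 FPKM against 17.5 and 13.7 in abomasum. At chr21:71453612-71531441, 1 locus high in ileum alone had 241 FPKM and 2 in between had 2472 and 109. The first of these shares its interval with a locus of 4720 FPKM in ileum and 5907 in abomasum, so how reads were divided between them is uncertain. The stretch chr19:43829756-43937992 consists of short loci whose values rest on few reads. The last 2, chr16:5487045-6172730 and chr7:18522295-18937117, held no locus high in ileum alone: the first had 2 loci shared with abomasum and the second 2 shared with nucleated blood cells, in intervals that several loci share.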

How the data were processed

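RNA-Seq was performed on total RNA extracted with TRIZOL from 8 cattle tissues, with 1 library per tissue prepared with the TruSeq kit. Per the study's methods, the authors filtered single-end reads, aligned them to UMD3.1 with TopHat2 2.0.13 and estimated transcript levels with the default settings of Cufflinks. In the deposited table, the authors gave FPKM values for 36801 loci in all 28 pairs of libraries. Columns of the authors' comparisons (log2 fold change, test statistic, p-value, q-value and significance flag) were not used, and the status column served only to count comparisons marked as tested and to find the 15 named loci with a failed estimate or too much data, which 1 alternative left out.

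Each library was assigned to its tissue by its label. The 11915 loci without an identifier were left out of the main counts. Levels were compared as log2(FPKM + 1) with a pseudocount of 1 FPKM, a minimum of 1 FPKM and a fold of 5 (2.3219 on the log2 scale). No test was possible, since each tissue had 1 library. The scaled depth was recovered from unnamed loci of 88 to 130 bases, with fragment lengths taken as normal (mean 200, SD 80, lower limit 87 bases), as the smallest depth that gave whole reads, within 0.03 of a read, at 95% or more of them. In ileum this was the case for 98.0% of 49 loci. It includes the scaling of the authors' program and so differs from the mapped read total. Counting steps were tested on simulated data. The calculations used Python 3.11.15, pandas 2.3.3, numpy 2.4.6 and scipy 1.17.1.

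The loci named were the 12 with the highest difference in ileum alone, the 6 highest of each shared set (all 7 for the set of 3 libraries), the 6 lowest and the 10 most abundant in ileum outside the mitochondrial genome, with at most 2 identifiers in each direction. Loci at the threshold, in stretches, or with the highest level outside ileum were picked with their values in view, as were the lists with 2 libraries left out together and the counts of shared loci within 5-fold of each other. The set of libraries, the lists and the thresholds were chosen with earlier results of these data known. None of the identifiers matched RefSeq's genes of ARS-UCD2.0, so marker lists are not analysed here, and no sequence is printed. Alternatives changed the fold, the pseudocount, the minimum, the scaling, the loci counted and the libraries compared.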

Additional observations from a re-analysis of the deposited data

Results flagged for a closer look

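Loci without an identifier were outside the comparisons above. Among these 11915 loci, 48 (0.403%) were high in ileum alone by the same rule, with a median of 20.6 FPKM in ileum, and 26 of them were listed at 0 in all 7 other libraries. A span of at least 300 bases was found for 44 of the 48. The locus with the highest difference, at chr29:51504200-51505154, had 296 FPKM in ileum and 0.354 in nucleated blood cells, and was listed at 0 in the other 6. At chr7:52601383-52710502 ileum had 90.9 FPKM and at chr23:26583299-26592135 it had 80.4, with 0 in all other libraries at both. These loci carry no gene name, and what they encode was not tested.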

How the results depend on the processing

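Counts depended most on the fold. With a fold of 2, 245 loci were high in ileum alone, 3 low in ileum alone, 112 high in ileum and abomasum, 319 in ileum and nucleated blood cells and 47 in all 3 libraries. With a fold of 10 the counts were 59 in ileum alone, 21 with abomasum, 11 with nucleated blood cells and 1 in all 3. A pseudocount of 0.1 FPKM gave 66 with nucleated blood cells and 16 in all 3. With loci without an identifier included, 2 were low in ileum alone, 100 high with abomasum, 51 with nucleated blood cells and 13 in all 3, and r with abomasum was 0.6091 against 0.8525 with mammary gland. Without the mammary gland library the counts were 105 with nucleated blood cells and 21 in all 3, and without the abomasum library 160 in ileum alone and 51 with nucleated blood cells. Without the uterus, mammary gland or rumen library, 2 loci were low in ileum alone. Without a minimum FPKM, r with whole testes was 0.6764. The cause was not tested.

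Otherwise counts stayed within 1.5 times the main ones and correlations within their spread over pairs: 15 of 18 alternatives for ileum alone, 14 of 17 with abomasum, 11 of 17 with nucleated blood cells, 11 of 16 in all 3, 13 of 18 for low in ileum, 4 of 4 for loci highest in ileum, and 33 of 35 for the correlations. For the counts of high or low loci, dropping the minimum could not change the result, since the fold already requires more than 1 FPKM. Leaving out loci with a failed estimate could not either, since no member had one. The spread over pairs is the SD of 0.132 between the 7 tissues, not an error of any 1 correlation. By this rule r with frontal cortex, 0.6523 against 0.7681 without a minimum, counts as unchanged. Of the 102 loci high in ileum alone, 99 were among the 103 found with libraries rescaled to 1 sum, and 101 among the 104 found with a median-ratio scaling. Rescaling to 1 sum shifted rumen by -0.85 and uterus by 0.48 on the log2 scale, and ileum by 0.02. One alternative was added after seeing the data, leaving out loci that span at most 200 bases. No paired analysis was possible because no tissue has replicates.

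The limits are those of 1 library per tissue: spread between animals or preparations was not measured. At the second-lowest depth, a true count of 0 in ileum on 1000 bases allows up to 0.549 FPKM. A listed 0 can also be a failed estimate, for which this limit does not hold. Absence is therefore not shown by a 0.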
